A study of Mus musculus with 12 samples.

Results

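The genes described here encode the Slit ligands and their Robo receptors, the netrins and their Dcc, neogenin and Unc5 receptors, and the semaphorins with their plexin and neuropilin receptors. They were taken from a list of 50 mouse gene symbols, matched to the Ensembl identifiers of the count files by name and by no measured value. The list itself was chosen with earlier results of these data known. Of the 50 genes, 49 had a row among the 37991 identifiers in the files, and the identifier of Ntn3 was not among them, so Ntn3 was not analysed here. A filter on low counts passed 15327 genes of the whole table and 46 of the 49. The 3 genes under the filter were Robo4, with 0 to 3 counts per sample, Ntn5, with 3 to 11, and Dcc, with 3 to 10.

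Slits, netrins and semaphorins were found as cues that attract or repel growing axons, and the same proteins steer the migration and adhesion of other cells, fibroblasts and blood vessel cells among them. Slits are secreted and bind Robo receptors. Netrins are secreted and bind Dcc, neogenin (Neo1) and the Unc5 receptors, while the netrin-G proteins are held on the membrane and bind other partners. Class 3 semaphorins are secreted and mostly act on complexes of a neuropilin, which binds the ligand, and a plexin, which signals. The other vertebrate classes are held in the membrane and mostly bind plexins directly.

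RNA was sequenced from primary mouse embryonic fibroblasts (MEFs) of the FVB strain, grown from embryos of day 13.5 and used at passage 3. The genotypes were wild type and homozygous E2f1 3KR/3KR (3KR), a germline knock-in carried by every cell, in which the 3 lysines of the transcription factor E2F1 that become acetylated are arginines. MEFs of each genotype were left untreated or were given neocarzinostatin (NCS), a drug that breaks DNA as radiation does, at 250 ng/ml for 3 h, which gave 4 groups of 3 samples. All the groups share the strain, the passage and culture in low oxygen. The labels do not say whether the samples of a group came from separate embryos or whether the genotypes were littermates, so p-values measure the spread between these samples, which may be technical.

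Each sample held 33203757 to 45279321 counted reads, with a median of 37623686, and 3 counts, taken here as the floor of detection for counting error, were 0.0663 to 0.0904 CPM. CPM are counts brought to a library of 1000000, with library sizes scaled by the TMM method of edgeR in what follows. E2f1 mRNA did not pass the test between genotypes (log2 fold change of -0.03 ± 0.06 (SE) without treatment, adjusted p = 0.71, and -0.02 ± 0.06 after NCS, adjusted p = 0.863), and the level of a gene with changed codons does not check the knock-in. Xist was at 0.846 to 1.642 CPM in the 6 wild-type samples and 799.9 to 933.5 CPM in the 6 3KR samples, and the Y-linked Ddx3y at 141.1 to 152.9 and 0.183 to 0.424 CPM. Sex and genotype cannot be told apart in any of the comparisons between genotypes. Wild-type replicate 3 stood apart from replicates 1 and 2 with and without NCS, its chi-square distance to them, divided by the number of genes, being 7.34 to 9.14, where all other pairs within a group gave 2.02 to 2.29. Counts of genes called are given below also without both of those samples.

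All 11 fibroblast markers were detected, and they summed to 57300 to 62040 CPM in wild-type and 61290 to 63600 CPM in 3KR samples. Without treatment 9 of the 11 were higher and 2 lower in 3KR. The 12 Schwann cell and neural crest markers summed to 280.8 to 298.0 CPM in wild-type and 59.6 to 68.5 CPM in 3KR samples, with 9 of 12 lower in 3KR without treatment. The 13 macrophage markers summed to 121.6 to 151.1 CPM in wild-type and 218.0 to 243.4 CPM in 3KR samples, with 13 of 13 higher without treatment. The 8 neuron markers summed to 112.8 to 131.0 against 50 to 54.7 CPM, with 0 higher and 4 lower of 6 tested without treatment. Their sum was mostly Stmn2 (54.9 against 25.7 CPM in the untreated group means), Tubb3 (41.1 against 21.9) and Nefm (21.6 against 2.68). Snap25, Syt1, Rbfox3 and Elavl4 were under 1 CPM in the mean of every group. The sum of 10 endothelial markers (107.1 to 116.9 against 190.4 to 211.8 CPM) was mostly Flt1 (94.2 against 177 CPM in the untreated group means). Of 8 tested without treatment, 2 were higher and 2 lower in 3KR. In the untreated group means Erg went from 4.24 to 23.8 CPM and Esam from 4.62 to 0.846 CPM. The sum of 6 skeletal muscle markers (121.4 to 127.4 against 41.9 to 44.5 CPM) was nearly all Des (120.3 against 41.5 CPM), and 2 of the 6 were tested, both lower. The 7 epithelial markers summed to 2.395 to 3.296 CPM over the 12 samples, and of 3 tested 2 were higher and 1 lower in 3KR without treatment. The neuron marker Rbfox3 and the muscle marker Myf5 were at 0 in both wild-type groups and in NCS-treated 3KR samples, and the endothelial marker Cldn5 was at 0 in NCS-treated wild-type samples. The part of these marker differences in the values below was not tested. In bulk RNA, fewer cells of a type and less RNA per cell cannot be told apart.

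The members were compared with one another per length, as CPM divided by the kilobases of merged exons in the GENCODE M21 gene model (GRCm38). In untreated wild-type MEFs the highest were the netrin receptor Unc5b, at 91.3 ± 3.24 (SD, n = 3) CPM per kb, and Sema7a, a semaphorin anchored to the membrane by a lipid that binds integrins and Plxnc1, at 79.7 ± 3.98. Plxnb2 followed at 54.1 ± 3.06, Nrp1 at 48.4 ± 1.63, Plxna1 at 38.7 ± 2.58, Neo1 at 24.4 ± 0.993 and Slit3 at 22.3 ± 0.506. Each neighbour in this order differed from the next by more than the sum of their SDs, which was not tested further. The lowest of the 46 were Robo3 at 0.022, Sema4a at 0.0934 and Unc5d at 0.0935 CPM per kb. In untreated 3KR MEFs Unc5b was again the highest, at 93.1 ± 1.79, Slit3 came next at 58.0 ± 0.657, and Sema7a was the sixth at 26.9 ± 0.785.

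**Figure D1:**
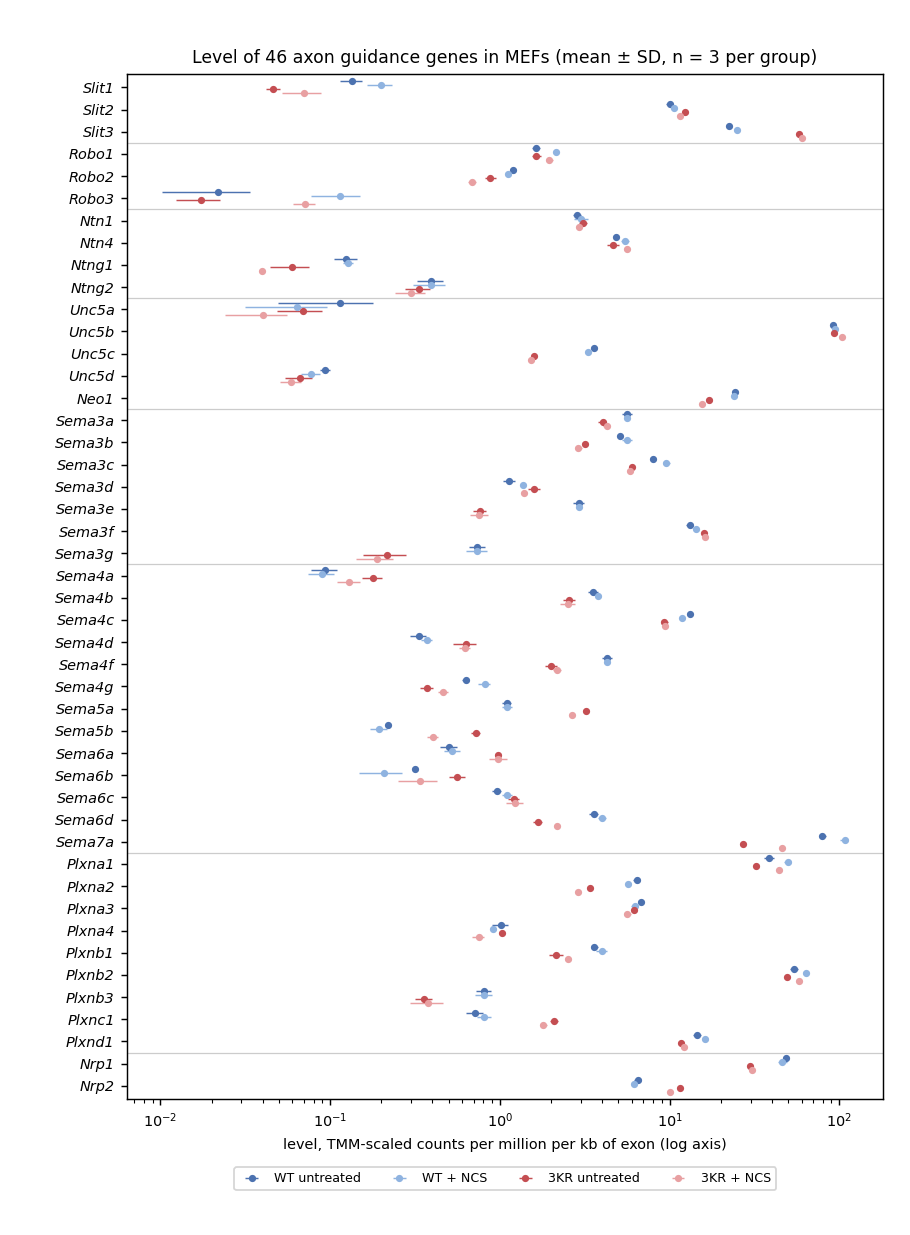
Level per length of the 46 tested genes in the 4 groups, as TMM-scaled CPM per kb of exon on a log axis, with the mean and SD of 3 samples per group. Unc5b was highest in both untreated groups (91.3 and 93.1 CPM per kb), while Sema7a lay lower (79.7 against 26.9) and Slit3 higher (22.3 against 58.0) in 3KR than in wild-type MEFs.

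Within each family 1 or 2 genes held most of the summed level per length in untreated wild-type MEFs. Slit3 held 68.7% of the Slit sum, Robo1 57.4% of the Robo sum, Ntn4 58.6% of the netrin sum, Unc5b 76.4% of the netrin receptor sum, Sema3f 35.8% of the class 3 sum, Sema7a 73.45% of the class 4 to 7 sum, Plxnb2 42.7% of the plexin sum and Nrp1 88.2% of the neuropilin sum. In untreated 3KR MEFs the same gene led every family, with Slit3 at 82.4% of its sum, Sema7a at 53.5% and Nrp1 at 71.85%. Shares of this kind depend on the gene model, since with the longest transcript in place of merged exons Nrp1 became the highest of all in untreated wild-type MEFs (130.1 CPM per kb) and Slit2 (25.5) came level with Slit3 (25.8).

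Between genotypes without treatment, 37 of the 46 genes (80.4%) passed an adjusted p of 0.05 in the quasi-likelihood test of edgeR, 13 higher and 24 lower in 3KR MEFs. Over all 15327 tested genes the share was 45.7%, with 22.1% higher and 23.6% lower. The members' median log2 fold change was -0.315 and the median of its absolute value 0.695, against 0.183 over all genes. A change of at least 1 on the log2 scale was called for 13 members, 4 higher and 9 lower, or 28.3% of the 46, against 8.6% of all genes. After NCS, 37 members were again called (80.4% against 46.5% of all genes), 11 higher and 26 lower (22.9% and 23.6% of all genes), with a median of -0.38 and 11 members past a log2 change of 1 (7.95% of all genes). In both treatments 34 members (73.9%) were called in the same direction, 10 higher and 24 lower, against 34.8% of all genes. No member was called in opposite directions, and 6 (Robo3, Ntn1, Ntn4, Ntng2, Unc5a and Unc5d) were called in neither. Without both wild-type samples of number 3, 39 members were called without treatment (48.8% of all genes), of which 38 were among the 46 and 1 was Ntn5, which then passed the filter, and 37 after NCS (49.7% of all genes).

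**Figure D2:**
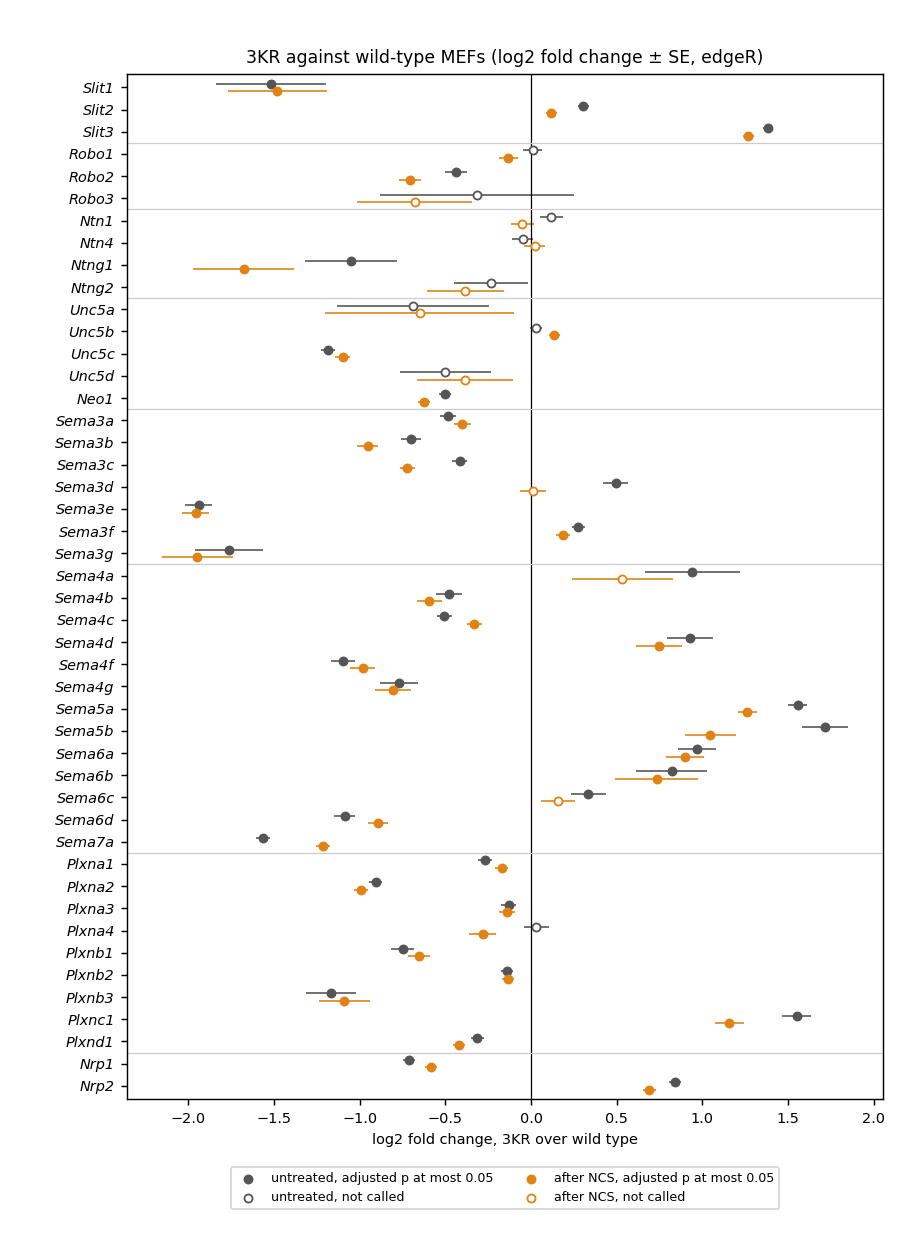
Log2 fold change of 3KR over wild-type MEFs for each tested gene, with the standard error from edgeR, untreated in grey and after NCS in orange, filled where the adjusted p was at most 0.05. Of 46 genes, 13 were called higher and 24 lower without treatment, from Sema5b at 1.72 to Sema3e at -1.94.

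The 4 upstream sequences printed here, from RefSeq (GRCm38.p6), show the regions in front of the genes with the largest untreated differences between genotypes in either direction, among members above 10 CPM in some group and present in the promoter table. Each runs 5′ to 3′ in the direction of transcription over the 250 bases before the annotated start, with the GC box GGGCGG and its reverse complement in capitals. Sema5a (chr15:32244563-32244812, plus strand) and Plxnc1 (chr10:94944846-94945095, minus strand) were higher in 3KR MEFs, and Sema3e (chr5:14025026-14025275, plus strand) and Sema7a (chr9:57939862-57940111, plus strand) were lower.
Sema5a: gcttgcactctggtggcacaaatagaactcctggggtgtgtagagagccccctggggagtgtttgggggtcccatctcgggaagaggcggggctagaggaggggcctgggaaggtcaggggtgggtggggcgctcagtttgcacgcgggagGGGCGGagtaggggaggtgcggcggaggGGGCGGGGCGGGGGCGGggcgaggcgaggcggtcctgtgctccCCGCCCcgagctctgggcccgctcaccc
Plxnc1: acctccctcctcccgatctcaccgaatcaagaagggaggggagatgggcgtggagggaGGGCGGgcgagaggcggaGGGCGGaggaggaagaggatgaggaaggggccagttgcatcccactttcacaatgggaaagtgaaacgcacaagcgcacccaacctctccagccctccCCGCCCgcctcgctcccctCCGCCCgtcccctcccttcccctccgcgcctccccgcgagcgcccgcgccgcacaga
Sema3e: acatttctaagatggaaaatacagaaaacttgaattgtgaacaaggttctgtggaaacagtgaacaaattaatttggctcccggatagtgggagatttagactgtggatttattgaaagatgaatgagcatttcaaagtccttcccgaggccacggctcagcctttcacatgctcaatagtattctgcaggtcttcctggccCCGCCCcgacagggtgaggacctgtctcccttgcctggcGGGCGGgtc
Sema7a: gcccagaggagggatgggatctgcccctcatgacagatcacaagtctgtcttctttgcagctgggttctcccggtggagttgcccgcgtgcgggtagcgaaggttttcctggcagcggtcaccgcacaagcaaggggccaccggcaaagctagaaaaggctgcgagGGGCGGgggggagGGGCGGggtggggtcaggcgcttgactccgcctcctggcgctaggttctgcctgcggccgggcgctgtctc
The stretch before Sema5a is 72% G and C with 5 GC boxes, that before Plxnc1 68.8% with 4, that before Sema7a 66.4% with 2, and that before Sema3e 48.0% with 2. The table held 53 promoters of 300 bases, 250 before and 50 after the start, for 40 members, and 9 members with a row in the files had none in it. A GC box on either strand stood in 35 of the 53 (66.0%) and in 35.7% of all 32851 promoters, whose median content of G and C was 63.7% and 52.7%. The E2F core motifs TTTCCCGC, TTTGGCGC, TTTCGCGC and TTTGCCGC stood, on either strand, in 0 of the 53 promoters and, taken as any of the 4, in 2.26% of all promoters, which says only that these letters are not in these windows.

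Among the Slits, which are the ligands of Robo receptors, the 3 genes did not move together between genotypes. Slit3 (ENSMUSG00000056427, chr11:35121224-35708507) was at 133, 134 and 139 CPM in untreated wild-type samples and 354, 354 and 347 CPM in untreated 3KR samples. After NCS it was at 153, 154 and 148 CPM in wild-type and 361, 368 and 369 CPM in 3KR samples. Every 3KR sample thus lay above every wild-type sample. The log2 fold change was 1.38 ± 0.03 (SE; 2.61-fold, adjusted p = 1.01e-20) without treatment and 1.27 ± 0.03 (2.41-fold, adjusted p = 6.23e-20) after NCS.

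Slit1 (ENSMUSG00000025020, chr19:41600257-41743665) went the other way at a level near 1 CPM. It was at 0.761, 0.692 and 0.925 CPM in untreated wild-type and 0.290, 0.245 and 0.285 CPM in untreated 3KR samples, which are 26 to 35 and 9 to 12 counts. After NCS the wild-type samples had 1.18, 0.967 and 1.37 CPM and the 3KR samples 0.371, 0.336 and 0.542 CPM. The genotypes did not overlap, and the log2 fold change was -1.52 ± 0.32 (adjusted p = 0.00039) and -1.48 ± 0.29 (adjusted p = 0.00017). Slit2 (chr5:47983138-48307733) differed less, by 0.31 ± 0.03 without treatment (1.24-fold, adjusted p = 5.95e-08) and 0.12 ± 0.03 after NCS (1.08-fold, adjusted p = 0.00561), and its values by sample stand with the NCS responses below.

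Of the Robo receptors, Robo2 was lower in 3KR MEFs at both treatments (log2 fold change of -0.44 ± 0.06, adjusted p = 3.4e-06, and -0.71 ± 0.07, adjusted p = 4.7e-09). Robo1 did not pass without treatment (0.01 ± 0.05, adjusted p = 0.916) and was called lower after NCS (-0.13 ± 0.05, adjusted p = 0.0454), a call lost in 8 of 14 alternatives, among them the fits without wild-type replicate 2 or 3 or 3KR replicate 1 or 3 (adjusted p up to 0.201). Robo3 passed in neither comparison, with log2 values of -0.31 ± 0.57 and -0.68 ± 0.34.

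The secreted netrins tested, Ntn1 and Ntn4, had log2 fold changes between genotypes of -0.05 to 0.12, with adjusted p of 0.164 or more. Of the membrane-anchored netrin-G genes, Ntng1 (ENSMUSG00000059857, chr3:109780040-110144011) was at 0.892, 1.20 and 0.979 CPM in untreated wild-type and 0.633, 0.462 and 0.380 CPM in untreated 3KR samples. The NCS-treated values were 0.969, 1.06 and 1.12 CPM in wild-type and 0.318, 0.336 and 0.325 CPM in 3KR samples. Every 3KR sample was below every wild-type sample, with a log2 fold change of -1.05 ± 0.27 (adjusted p = 0.0025) and -1.68 ± 0.29 (adjusted p = 5.07e-05). Ntng2 did not pass (-0.23 ± 0.22 and -0.38 ± 0.22).

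Netrin receptors split by gene. Unc5c (ENSMUSG00000059921, chr3:141465216-141834924), which mediates repulsion from netrin-1, was at 67.3, 67.9 and 71.9 CPM in untreated wild-type and 30.4, 29.6 and 31.0 CPM in untreated 3KR samples. With NCS the gene was at 63.9, 62.9 and 62.3 CPM in wild-type and 30.1, 28.3 and 29.7 CPM in 3KR samples. The genotypes did not overlap, at 2.27-fold lower in 3KR without treatment (log2 fold change -1.18 ± 0.04, adjusted p = 7.77e-17) and 2.14-fold lower after NCS (-1.10 ± 0.04, adjusted p = 5.37e-16). Neo1, which binds netrins and repulsive guidance molecules, was lower by less (-0.50 ± 0.04, adjusted p = 2.55e-11, and -0.62 ± 0.04, adjusted p = 6.52e-13). Unc5b, the most abundant receptor per length, had a log2 fold change of 0.03 ± 0.03 without treatment (adjusted p = 0.524) and 0.14 ± 0.03 after NCS (adjusted p = 0.00161). Unc5a and Unc5d, under 1 CPM in the mean of every group, did not pass.

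All 7 class 3 semaphorins were called between genotypes without treatment, 5 lower (Sema3a, Sema3b, Sema3c, Sema3e and Sema3g) and 2 higher (Sema3d and Sema3f) in 3KR MEFs. The largest difference was in Sema3e (ENSMUSG00000063531, chr5:14025276-14256689), which is unusual in its class in binding Plxnd1 without a neuropilin. Sema3e was at 26.8, 25.2 and 29.4 CPM in untreated wild-type and 6.85, 7.78 and 6.61 CPM in untreated 3KR samples. With NCS the values were 27.0, 27.5 and 27.4 CPM in wild-type and 7.16, 6.10 and 7.77 CPM in 3KR samples. The genotypes were far apart with and without NCS, at 3.84-fold lower in 3KR MEFs without treatment (log2 fold change -1.94 ± 0.08, adjusted p = 8.07e-16) and 3.88-fold lower after NCS (-1.96 ± 0.08, adjusted p = 1.15e-15). Its receptor Plxnd1 was lower by -0.32 ± 0.04 and -0.42 ± 0.04 on the log2 scale (adjusted p = 2.58e-07 and 2.5e-09).

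Sema3g (ENSMUSG00000021904, chr14:31217860-31230352) was at 2.98, 3.70 and 3.34 CPM in untreated wild-type and 1.24, 1.03 and 0.689 CPM in untreated 3KR samples. NCS-treated samples had 3.74, 2.80 and 3.50 CPM in wild-type and 0.955, 0.610 and 1.0 CPM in 3KR samples. All 3KR samples were below all wild-type samples, with log2 fold changes of -1.76 ± 0.20 (adjusted p = 1.08e-07) and -1.95 ± 0.21 (adjusted p = 4.56e-08). Sema3a, which repels axons through Nrp1, was lower by -0.48 ± 0.05 and -0.40 ± 0.05. Sema3b was lower by -0.70 ± 0.06 and -0.95 ± 0.06, and Sema3f, which acts through Nrp2, was higher by 0.28 ± 0.04 and 0.19 ± 0.04.

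Sema3d, Sema3a, Sema3e and Sema3c lie in this order within 5.35 Mb of chromosome 5 (chr5:12383385-17730268). They did not share a direction, since Sema3d was higher (0.49 ± 0.07, adjusted p = 6.98e-06) and the other three were lower in untreated 3KR MEFs. The interval held 2 other tested genes, Cacna2d1, with a log2 fold change of -0.31 (adjusted p = 1.38e-07), and Hgf, with -0.04 (adjusted p = 0.564).

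Semaphorins of classes 4 to 7 were all called without treatment, 7 higher and 6 lower in 3KR MEFs, and both class 5 genes were among the higher. Sema5a (ENSMUSG00000022231, chr15:32244810-32696341), a membrane semaphorin with thrombospondin repeats, was at 19.1, 20.9 and 21.6 CPM in untreated wild-type and 61.0, 57.8 and 62.0 CPM in untreated 3KR samples. The 2.94-fold difference (log2 fold change 1.56 ± 0.05, adjusted p = 4.2e-17) was 2.40-fold after NCS (1.26 ± 0.05, adjusted p = 4.02e-15). Sema5b (ENSMUSG00000052133, chr16:35541145-35664732) was lower in level, at 1.54, 1.52 and 1.58 CPM in untreated wild-type and 5.40, 5.03 and 4.85 CPM in untreated 3KR samples. After NCS it was at 1.37, 1.52 and 1.22 CPM in wild-type and 2.60, 2.99 and 2.95 CPM in 3KR samples. The genotypes did not overlap, with log2 fold changes of 1.72 ± 0.13 (adjusted p = 2.02e-10) and 1.05 ± 0.15 (adjusted p = 3.39e-06).

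Sema7a (ENSMUSG00000038264, chr9:57940112-57962865) was the semaphorin with the largest difference in CPM between genotypes. It was at 257, 254 and 278 CPM in untreated wild-type and 86.3, 88.7 and 91.5 CPM in untreated 3KR samples. Treated with NCS, the samples had 340, 347 and 376 CPM in wild-type and 151, 152 and 155 CPM in 3KR samples. The 4 groups did not overlap, and the log2 fold change between genotypes was -1.56 ± 0.04 (2.96-fold lower, adjusted p = 2.58e-19) and -1.22 ± 0.04 (2.32-fold lower, adjusted p = 2.3e-17). Its receptor Plxnc1 moved in the other direction, as given with the plexins.

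Sema6d (ENSMUSG00000027200, chr2:124089969-124667770), a transmembrane ligand of Plxna1, was at 35.8, 37.0 and 40.2 CPM in untreated wild-type and 18.5, 16.5 and 18 CPM in untreated 3KR samples. With NCS the gene was at 40.9, 41.0 and 45.1 CPM in wild-type and 23.7, 22.3 and 22.4 CPM in 3KR samples. All 3KR samples were lower, with log2 fold changes of -1.09 ± 0.06 (adjusted p = 2.49e-13) and -0.89 ± 0.06 (adjusted p = 7.37e-12).

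Sema4f (ENSMUSG00000000627, chr6:82911885-82939769) was at 23.6, 20.8 and 23.5 CPM in untreated wild-type and 11.5, 10.4 and 9.87 CPM in untreated 3KR samples. The values after NCS were 21.8, 23.2 and 23.4 CPM in wild-type and 11.1, 11.1 and 12.3 CPM in 3KR samples. The genotypes did not overlap, with log2 fold changes of -1.10 ± 0.07 (adjusted p = 5.49e-12) and -0.98 ± 0.07 (adjusted p = 4.75e-11). Sema4b, Sema4c and Sema4g were also lower, by -0.48 to -0.77 on the log2 scale without treatment. Sema4d, a ligand of Plxnb1, was higher by 0.93 ± 0.13 and 0.75 ± 0.13, Sema6a by 0.97 ± 0.11 and 0.90 ± 0.11, and Sema6b by 0.82 ± 0.21 and 0.73 ± 0.24. Sema4a (0.94 ± 0.28) and Sema6c (0.34 ± 0.10) were called higher without treatment and did not pass after NCS, at 0.53 ± 0.29 and 0.16 ± 0.10. The call of Sema6c was lost without replicate 1 of either genotype (adjusted p up to 0.0617), and the call of Sema6b after NCS without wild-type replicate 2 or 3KR replicate 3 (up to 0.13).

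Of the 9 plexins, the signalling receptors of semaphorins, 7 were lower, 1 was higher and 1 did not pass without treatment. The higher one was Plxnc1 (ENSMUSG00000074785, chr10:94790866-94944835), the receptor of Sema7a. Plxnc1 was at 5.57, 5.56 and 6.80 CPM in untreated wild-type and 16.7, 17.2 and 18.4 CPM in untreated 3KR samples. The NCS-treated values were 7.40, 6.70 and 6.15 CPM in wild-type and 14.2, 15.5 and 15.5 CPM in 3KR samples. The genotypes did not overlap, at 2.93-fold higher in 3KR MEFs (log2 fold change 1.55 ± 0.09, adjusted p = 3.04e-13) and 2.23-fold higher after NCS (1.16 ± 0.09, adjusted p = 8.87e-11). The ratio of Sema7a to Plxnc1, per length, was 111.9 ± 7.31 (SD, n = 3) in untreated wild-type and 12.9 ± 0.307 in untreated 3KR samples, a pair set side by side after its values were seen. This ratio depends on the gene model. In untreated wild-type MEFs Plxnc1 was at 0.716 CPM per kb with merged exons and 0.818 with the longest transcript, and Sema7a at 79.7 with either.

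Plxnb3 (ENSMUSG00000031385, chrX:73757090-73772514), a receptor of Sema5a on the X chromosome, was at 4.76, 5.16 and 5.76 CPM in untreated wild-type and 2.64, 2.09 and 2.23 CPM in untreated 3KR samples. NCS-treated samples had 5.54, 5.56 and 4.54 CPM in wild-type and 1.91, 3.02 and 2.46 CPM in 3KR samples. The 3KR samples were all lower, with log2 fold changes of -1.17 ± 0.15 (adjusted p = 5.62e-07) and -1.09 ± 0.15 (adjusted p = 1.85e-06). Plxna3, also X-linked, was lower by -0.13 ± 0.04 and -0.14 ± 0.05, calls that were lost without untreated wild-type replicate 1 or 3KR replicate 1 or 2 (adjusted p up to 0.0676) and without treated replicate 3 of either genotype (up to 0.0944).

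Plxna2 was lower by -0.91 ± 0.04 and -0.99 ± 0.04 on the log2 scale, which is 110 against 58.5 CPM in the untreated group means. Plxnb1 was lower by -0.75 ± 0.07 and -0.66 ± 0.06. Plxna1 (-0.27 ± 0.04 and -0.17 ± 0.04) and Plxnb2 (-0.14 ± 0.04 at both treatments), the most abundant plexins per length, were lower by little. Plxna4 did not pass without treatment (0.03 ± 0.08) and was lower after NCS (-0.28 ± 0.08, adjusted p = 0.00574).

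The neuropilins, which bind class 3 semaphorins and vascular endothelial growth factor, moved in opposite directions. Nrp1 was at 474 ± 15.9 (SD, n = 3) CPM in untreated wild-type and 290 ± 2.47 CPM in untreated 3KR MEFs (log2 fold change -0.71 ± 0.04, adjusted p = 6.02e-14). Nrp2 was at 76.8 ± 3.78 and 137 ± 3.43 CPM (0.84 ± 0.04, adjusted p = 5.54e-15). After NCS the log2 fold changes were -0.58 ± 0.04 for Nrp1 (adjusted p = 2.97e-12) and 0.69 ± 0.04 for Nrp2 (adjusted p = 3.4e-13). Nrp2 per length was 0.134 ± 0.00266 of Nrp1 in untreated wild-type and 0.392 ± 0.00645 in untreated 3KR samples, a pair also set side by side after its values were seen. The ratio depends on the gene model, which its SD does not hold. With the longest transcript in place of merged exons, untreated wild-type MEFs had Nrp1 at 130.1 in place of 48.4 CPM per kb and Nrp2 at 11.4 in place of 6.48.

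**Figure D3:**
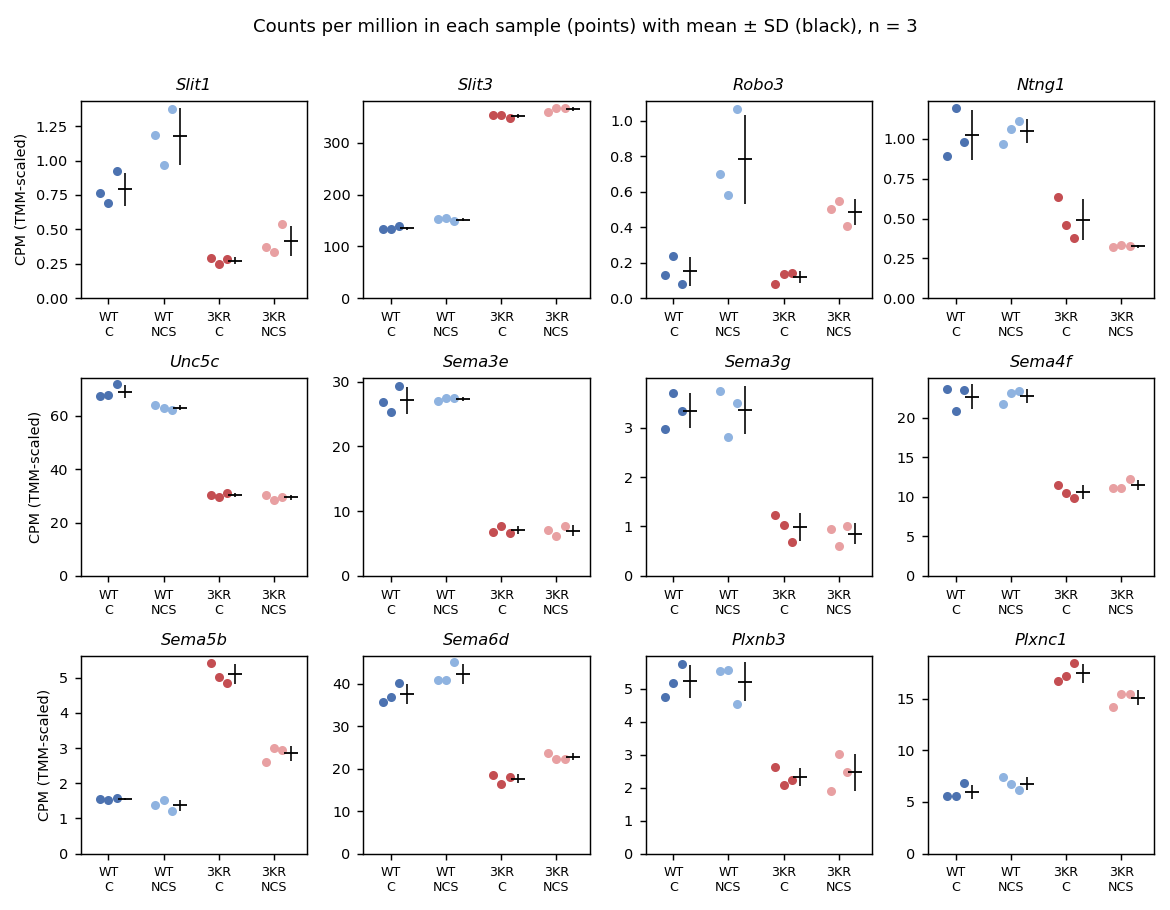
CPM (TMM-scaled, linear axes from 0) of 12 genes in each sample of the 4 groups, with the mean and SD of 3 samples in black. Slit3, Sema5b and Plxnc1 were higher and Slit1, Ntng1, Unc5c, Sema3e, Sema3g, Sema4f, Sema6d and Plxnb3 lower in every 3KR than in every wild-type sample, and Robo3 rose with NCS in both genotypes.

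In wild-type MEFs 18 of the 46 members (39.1%) were called between NCS and no treatment, 14 higher and 4 lower, against 26.7% of all genes (14.3% higher, 12.4% lower). In 3KR MEFs 22 (47.8%) were called, 10 higher and 12 lower, against 30.8% of all genes (15.8% higher, 15% lower). Scaling by library totals in place of TMM gave 10 higher and 7 lower members in wild-type and 9 higher and 13 lower in 3KR MEFs, and over all genes 1464 higher and 2885 lower in wild-type and 1718 higher and 3275 lower in 3KR MEFs. The median absolute log2 fold change of the members was 0.147 in wild-type and 0.168 in 3KR MEFs, below the 0.695 and 0.668 between genotypes, against 0.126 and 0.141 over all genes. Without both wild-type samples of number 3, 20 members were called in wild-type MEFs, while the share of all genes rose to 32.7%. In both genotypes 10 members were called in the same direction (21.7%, against 17% of all genes), 2, Slit2 and Sema3d, in opposite directions, and 18 in neither.

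Robo3 (ENSMUSG00000032128, chr9:37415669-37433246), a receptor of the Robo family that in commissural neurons lowers the response to Slit, had the largest NCS response and, in both untreated groups, the lowest level per length of the tested members. It was at 0.131, 0.239 and 0.0816 CPM in untreated and 0.70, 0.580 and 1.06 CPM in NCS-treated wild-type samples, which are 3 to 9 and 24 to 41 counts. In 3KR MEFs it was at 0.0791, 0.136 and 0.143 CPM without and 0.504, 0.549 and 0.406 CPM with NCS, which are 3 to 6 and 15 to 19 counts. Treated and untreated samples did not overlap in either genotype, and 1 untreated sample of each genotype was at the floor of 3 counts. The log2 fold change was 2.35 ± 0.41 in wild-type (adjusted p = 0.000113) and 1.99 ± 0.46 in 3KR MEFs (adjusted p = 0.00199), and the difference between genotypes did not pass (-0.37 ± 0.68, adjusted p = 0.849).

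The other members called higher with NCS in both genotypes were Robo1, Ntn4, Sema4g, Sema6d, Sema7a, Plxna1 and Plxnb2, and those called lower in both were Plxna2 and Plxna3. Robo1 rose by 0.40 ± 0.05 in wild-type (adjusted p = 5.08e-06) and 0.25 ± 0.05 in 3KR MEFs (adjusted p = 0.000891). Plxna1 rose by 0.36 ± 0.04 and 0.46 ± 0.04, and Plxnb2 by 0.23 ± 0.04 in both genotypes. Plxna2 had log2 fold changes of -0.16 ± 0.04 and -0.24 ± 0.04. The wild-type call was lost for Ntn4 without replicate 1 or 2 of either treatment, for Sema4g without treated replicate 2, for Sema6d without untreated replicate 1 or 2 or treated replicate 3, and for Plxna3 without untreated replicate 1 or 3 or treated replicate 1 or 2, with adjusted p over all alternatives of up to 0.132, 0.0599, 0.124 and 0.239. Library totals and a fit of the compared samples alone also ended the wild-type calls of Ntn4 and Sema6d, and DESeq2, its size factors and a fit of the compared samples alone that of Plxna3. The 3KR call was lost for Sema4g without untreated replicate 2 or 3 or treated replicate 1 or 2 (up to 0.139), in DESeq2 (0.0667), with library totals (0.0627) and with no filter (0.0662), and for Plxna3 without any 1 sample but treated replicate 2 (up to 0.152).

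Sema5b and Sema6b were called lower with NCS in 3KR MEFs by more than 0.5 on the log2 scale. The Sema5b samples listed above gave a change of -0.84 ± 0.13 (adjusted p = 1.46e-05) in 3KR MEFs, without overlap, and -0.17 ± 0.16 (adjusted p = 0.492) in wild-type MEFs, and the difference between these did not pass (-0.67 ± 0.20, adjusted p = 0.0733) but did without treated wild-type replicate 3 (0.0479) or both wild-type samples of number 3 (0.0379). Sema6b (ENSMUSG00000001227, chr17:56123085-56140343) was at 1.95, 2.42 and 2.33 CPM without and 1.27, 1.04 and 1.73 CPM with NCS in 3KR samples (log2 fold change -0.72 ± 0.21, adjusted p = 0.0109). In wild-type samples it was at 1.26, 1.25 and 1.28 CPM without and 1.05, 0.580 and 0.830 CPM with NCS (-0.63 ± 0.24, adjusted p = 0.0553). The wild-type value passed in 5 of 14 alternatives, among them the fit with the replicate block (adjusted p = 0.0432) and that without treated replicate 1 (0.0251). In each genotype the treated samples all lay below the untreated ones, and the difference between genotypes was -0.09 ± 0.32 (adjusted p = 0.928). The 3KR call was lost without treated replicate 2 (adjusted p = 0.0658).

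**Figure D4:**
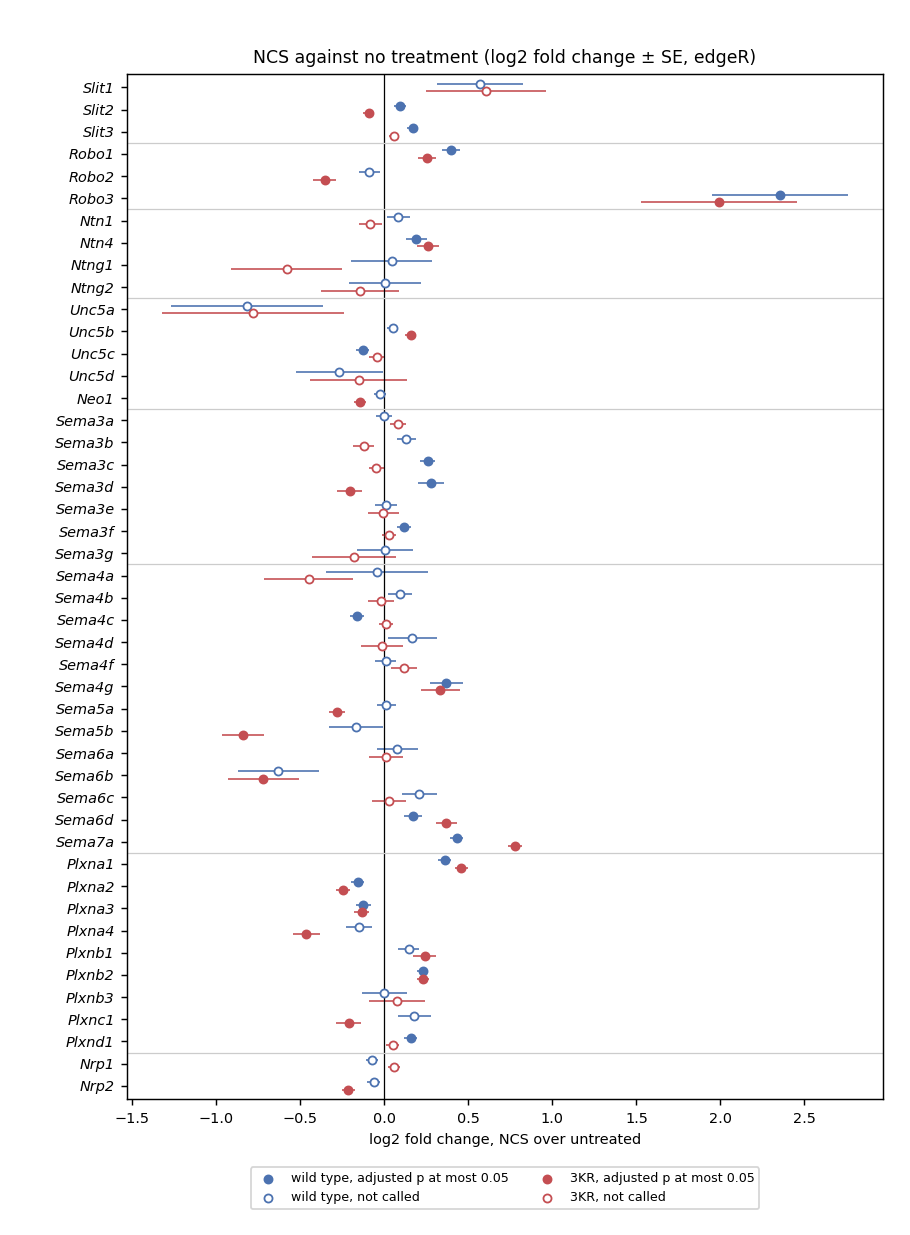
Log2 fold change of NCS over no treatment for each tested gene, with the standard error from edgeR, wild type in blue and 3KR in red, filled where the adjusted p was at most 0.05. Robo3 lay apart at 2.35 in wild-type and 1.99 in 3KR MEFs, while the next largest called values were -0.84 for Sema5b and 0.78 for Sema7a in 3KR MEFs.

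The difference between the NCS responses of the genotypes, which draws on the same 12 samples as the comparisons above, was called for 5 of 46 members (10.9%, against 3.73% of all genes), 1 with a higher (1.86% of all genes) and 4 with a lower response (1.87%) in 3KR MEFs. All 5 were ligands, Slit2, Sema3c, Sema3d, Sema5a and Sema7a, where 27 of the 46 tested members are ligands. This count depended on wild-type replicate 3. Without both of its samples 18 members were called (11.8% of all genes). Without the untreated one 10 were called (7.4% of all genes) and without the treated one also 10 (5.28%). With the culture (genotype and replicate number) as a block 13 were called (9.0% of all genes). The 5 were called in each of these, and the further calls included receptors, among them Plxnc1 in each.

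Sema7a rose more with NCS in 3KR than in wild-type MEFs, by 0.78 ± 0.04 (1.72-fold, adjusted p = 1.22e-12) against 0.43 ± 0.04 (1.35-fold, adjusted p = 1.3e-08). The difference was 0.35 ± 0.06 (adjusted p = 0.000582), and the log2 fold change between genotypes was -1.56 without and -1.22 with NCS. The treated 3KR samples, at 151 to 155 CPM, remained below the untreated wild-type samples at 254 to 278 CPM.

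Sema3d (ENSMUSG00000040254, chr5:12383385-12588948) was at 9.01, 10.5 and 9.79 CPM in untreated and 12, 11.9 and 11.5 CPM in NCS-treated wild-type samples. In 3KR samples it was at 14.2, 12.5 and 14.4 CPM without and 12, 12.1 and 11.5 CPM with NCS. In each genotype the treated and untreated samples did not overlap, with treated samples higher in wild-type (log2 fold change 0.28 ± 0.08, adjusted p = 0.0078) and lower in 3KR MEFs (-0.21 ± 0.07, adjusted p = 0.0364). The difference of -0.48 ± 0.11 (adjusted p = 0.00915) left the genotypes level after NCS, at 11.8 ± 0.254 and 11.9 ± 0.359 CPM (SD, n = 3; log2 fold change 0.01 ± 0.07). The wild-type call was lost without untreated replicate 1 (adjusted p = 0.0637), and the 3KR call without any 1 sample but untreated replicate 2 (up to 0.1595) and in DESeq2 (0.0644), while the difference was kept in all 19 alternatives.

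Sema3c (ENSMUSG00000028780, chr5:17574281-17730268), a class 3 semaphorin needed for the outflow vessels of the heart, was at 58.6, 54.5 and 58.6 CPM in untreated and 71.4, 68.9 and 65.0 CPM in NCS-treated wild-type samples. In 3KR samples it was at 42.9, 43.1 and 42.6 CPM without and 40.6, 43.3 and 40.6 CPM with NCS. Treated wild-type samples were all higher than untreated ones (0.26 ± 0.04, adjusted p = 7.87e-05), while those of 3KR MEFs overlapped (-0.05 ± 0.05, adjusted p = 0.473). The difference was -0.30 ± 0.06 (adjusted p = 0.00587), and the genotypes, which did not overlap, lay farther apart after NCS (-0.72 ± 0.04) than without it (-0.42 ± 0.04).

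Sema5a was at 19.2, 22.0 and 20.8 CPM in NCS-treated wild-type samples, which overlapped with the untreated ones given above (0.01 ± 0.06, adjusted p = 0.915). In 3KR samples it was at 49.0, 50.8 and 49.0 CPM with NCS, below the 57.8 to 62.0 CPM without it (-0.28 ± 0.05, adjusted p = 0.00012). The difference was -0.29 ± 0.08 (adjusted p = 0.0311), a call lost without untreated wild-type replicate 1, treated wild-type replicate 2, or any 1 of the 3KR samples but untreated replicate 2 (adjusted p up to 0.118).

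Slit2 (ENSMUSG00000031558) was at 248, 247 and 269 CPM in untreated and 270, 266 and 278 CPM in NCS-treated wild-type samples, which overlapped (0.09 ± 0.03, adjusted p = 0.0437). In 3KR samples it was at 315, 317 and 311 CPM without and 295, 298 and 290 CPM with NCS, without overlap (-0.09 ± 0.03, adjusted p = 0.0342). These are changes of under 10% in opposite directions, and the difference of -0.19 ± 0.05 (adjusted p = 0.0249) was lost without untreated wild-type replicate 1 or 2, treated wild-type replicate 1, or any 1 of the 3KR samples but treated replicate 2 (adjusted p up to 0.084). The wild-type call was lost without any 1 sample but untreated replicate 3 (up to 0.187) with library totals as the scaling (0.311), with a fit of the compared samples alone (0.198) and with at least 10 counts in every sample (0.0633), and the 3KR call without any 1 sample (up to 0.127).

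**Figure D5:**
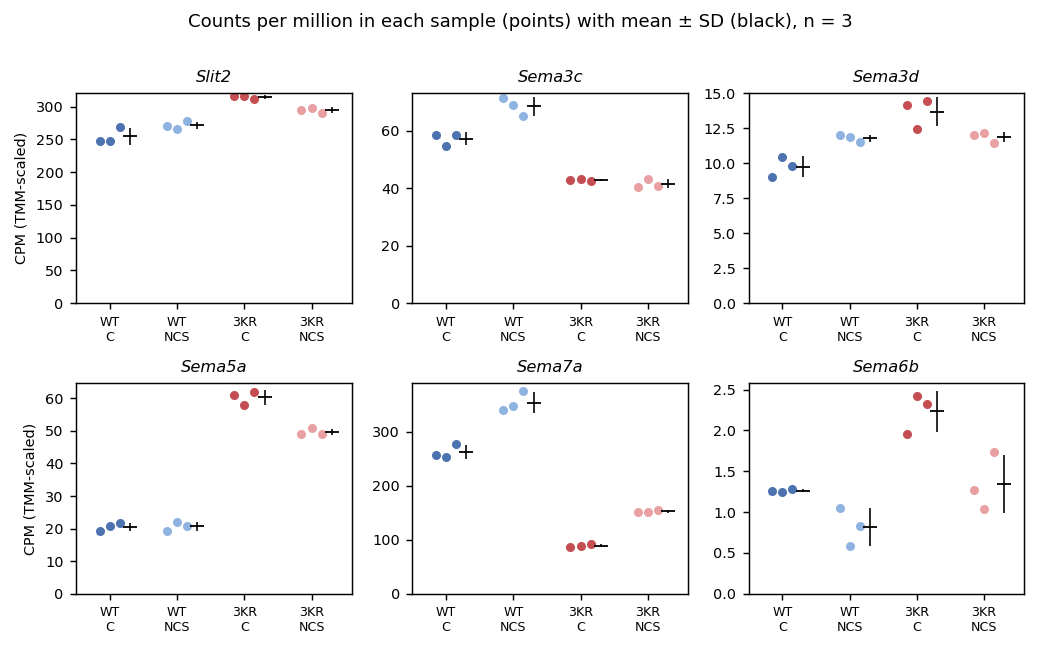
CPM (TMM-scaled, linear axes from 0) of the 5 genes whose NCS response differed between genotypes, and of Sema6b, in each sample of the 4 groups with the mean and SD of 3 samples in black. Sema7a rose in both genotypes, Sema3c in wild-type MEFs and Sema5a fell in 3KR MEFs, while Sema3d met at 11.8 and 11.9 CPM after NCS.

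The members span from 9.7 kb (Sema4c) to 737.8 kb (Robo1) among those tested. Of the 11 over 300 kb, 4 were called higher and 1 lower with NCS in wild-type MEFs (median log2 fold change 0.012, against 0.051 for 439 genes of that span) and 2 higher and 4 lower in 3KR MEFs (median -0.095, against -0.045). Of the 18 up to 50 kb, 7 were called higher and 2 lower in wild-type (median 0.123, against 0.001 for 10677 genes) and 6 higher and 2 lower in 3KR MEFs (median 0.040, against 0.005). Over all tested genes of any span, 14.3% were called higher and 12.4% lower in wild-type and 15.8% and 15% in 3KR MEFs. The shares of all genes called within each span were not counted, and the counts and medians are given with no test.

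Other genes of the same pathways were counted from 2 lists. Of 23 tested ligands and co-receptors outside the families above, 7 were higher and 10 lower in untreated 3KR MEFs (median log2 fold change -0.009) and 6 higher and 9 lower after NCS (median 0.019), beside the 22.1% higher and 23.6% lower, and after NCS 22.9% and 23.6%, of all genes. Pgf, a growth factor that binds the receptor Flt1, was lower by -2.29 ± 0.08 (adjusted p = 4.19e-17) without treatment and -2.06 ± 0.07 (adjusted p = 4.21e-17) after NCS. Flt1 was higher by 0.91 ± 0.03 (adjusted p = 9.02e-17) without treatment. Itgb1, the beta subunit of integrins through which Sema7a also signals, was lower by -0.56 ± 0.02 and -0.54 ± 0.02. L1cam, an adhesion protein that forms part of some Sema3a receptors and is also among the Schwann cell markers, was lower by -1.96 ± 0.08 and -2.08 ± 0.09 (adjusted p = 1.91e-15 and 1.35e-15).

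Of 32 genes of intracellular signal transduction below these receptors, all tested, 5 were higher and 16 lower without treatment (median -0.125) and 5 higher and 17 lower after NCS (median -0.138), against 22.1% higher and 23.6% lower of all genes without treatment and 22.9% and 23.6% after NCS. Srgap1, a GTPase-activating protein that binds Robo receptors, was lower by -0.73 ± 0.05 (adjusted p = 1.1e-11) and -0.70 ± 0.05 (adjusted p = 2.36e-11). Rhod, a small GTPase, was lower by -0.76 ± 0.05 and -0.54 ± 0.05, Mical2, an actin-oxidizing enzyme, by -0.48 ± 0.04 without treatment, and Ptk2, the focal adhesion kinase, by -0.40 ± 0.03 after NCS. With NCS, 13 of the 32 were higher in each genotype (14.3% of all genes in wild-type and 15.8% in 3KR MEFs), with 4 lower in wild-type (12.4%) and 5 in 3KR MEFs (15%). The difference of NCS responses was called for 3 of these genes (Mical2, Rnd1 and Nck2, named after their values were seen) and for 0 of the 23 ligands and co-receptors, against 3.73% of all genes.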

How the data were processed

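RNA-seq counts were available for 12 samples, 3 for each genotype and treatment, grouped by the sample labels. The authors deposited 1 table of raw read counts per Ensembl gene for each sample, neither normalized nor filtered. Libraries were made with a stranded mRNA kit, and the submitters' processing notes name TopHat, HTSeq, DESeq and the mm9 build, with no versions and no strand setting. Unc5a, Unc5c, Sema4c, Plxna4, Plxnb1 and Ntn5 (519 of its 2216 exon bases) overlap exons of a gene on the other strand. Whether such reads were kept apart is not given in the sources used here. On the same strand, Ntng2 (558 of 3990 exon bases) and Nrp1 (80 of 9785) overlap exons of another gene, and how such reads were counted is not given either. Symbols, exon lengths and positions were read by identifier from GENCODE M21 (GRCm38), which holds 32919 of the 37991 identifiers. These positions are not those of the authors' build.

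Counts were filtered with filterByExpr, scaled by TMM and fitted in R 4.3.3 with edgeR 4.0.16 (glmQLFit and glmQLFTest, quasi-likelihood), with 1 coefficient per group over all 12 samples, two-sided, and p-values adjusted by the Benjamini-Hochberg method over 15327 genes at a threshold of 0.05. The study used DESeq2, which was run here (version 1.42.0) as an alternative. The other alternatives were DESeq2 size factors or library totals, no filter, a minimum of 10 counts in all samples, a fit of the compared samples alone, a replicate block, each sample left out in turn, and both wild-type samples of number 3 left out. The common biological coefficient of variation was 3.95%. The scripts were tested on simulated counts. The SDs and standard errors hold the spread between samples, and the floor of 3 counts covers counting error only.

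Values in every sample are printed for members with an adjusted p of 0.05 or lower and an absolute log2 fold change of at least 1 between genotypes or 0.5 with NCS, and for those called in the difference of responses. Pathway lists are given by counts and their 3 lowest p-values per genotype comparison. L1cam after NCS and Flt1 without treatment are among these. The members, the pathway and marker lists and the named-gene rule were chosen with earlier results of these data known. The GC box, the choice of promoters printed and the 2 ratios between genes were chosen after values were seen.

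Deviations from the group means of equally numbered untreated and treated samples correlated at 0.144, 0.139 and 0.318 over 11810 genes in wild-type MEFs. The highest correlations with a treated sample of another number were 0.12, 0.124 and -0.195, so only replicate 3 stood clear. In 3KR MEFs the equally numbered samples gave -0.098, -0.088 and -0.021. The main fit took no samples as paired, and the numbers entered only in the alternative with a replicate block.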

Additional observations from a re-analysis of the deposited data

Results flagged for a closer look

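The response to NCS differed between the genotypes, by the test of the difference itself in edgeR, for 5 of the 46 tested genes. As 3KR response minus wild-type response on the log2 scale, the values were -0.19 for Slit2, -0.30 for Sema3c, -0.48 for Sema3d, -0.29 for Sema5a and 0.35 for Sema7a. In Slit2 and Sema3d the responses were called in opposite directions, and in Sema7a both were higher with NCS. The calls of Sema3c, Sema3d and Sema7a were kept in all 19 alternatives, that of Sema5a was lost in 7 and that of Slit2 in 8, each of them a fit with 1 sample left out. In the same difference 5 of 11 fibroblast markers were called lower, against 1.87% of all genes, and their part in these values was not tested.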

How the results depend on the processing

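Over the alternatives, 512 of 517 calls of members between untreated genotypes were kept, 505 of 517 after NCS, 213 of 250 for NCS in wild-type MEFs, 251 of 284 for NCS in 3KR MEFs and 80 of 95 for the difference of responses, and 0 reversed. With 1 sample left out, the count of members called ranged from 35 to 38 between untreated genotypes (35 to 37 of the 46, the other call being Ntn5, which passed the filter in 3 of these fits), 34 to 37 after NCS, 12 to 19 for NCS in wild-type MEFs and 16 to 19 for NCS in 3KR MEFs.

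The count for the difference of responses, 5 members, moved by over 1.5 times. It was 13 with a replicate block (culture), 18 without both wild-type samples of number 3, and 3 to 10 with 1 sample left out. It was 10 without wild-type replicate 3, untreated or treated, and 3 without untreated wild-type replicate 1 or without replicate 1 or 3 of either 3KR group. Over all genes it was 572, 1379 with the block, 1842 without both wild-type samples of number 3, and 345 to 1159 with 1 sample left out. The cause was not tested. The block left the other counts at 37 and 37 between genotypes and 21 and 23 for NCS in wild-type and 3KR MEFs, where 3KR samples shared only a number.

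Scaling by library totals moved the median log2 response of all genes to NCS to -0.04 in wild-type and -0.05 in 3KR MEFs. Levels per length moved by more than 1 SD for 1 of 184 group means with DESeq2 size factors, 23 with library totals and 147 with the longest transcript as length. Genes such as Robo3, with 3 to 9 counts without treatment, are limited by depth.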
